A study of Mus musculus with 3 samples.

Results

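The Krüppel-like factors (KLFs) other than Klf1 were examined as a family of 10 genes, Klf2, Klf3, Klf4, Klf5, Klf6, Klf7, Klf9, Klf10, Klf12 and Klf13, among 18194 genes named on the array. All 38 probe sets annotated to these genes alone were taken, whatever their signal. Expression was measured in mouse LSK cells, the marrow cells free of lineage markers and positive for Sca-1 and Kit, in which stem cells are enriched, in a study of p53 and stem cell quiescence. The data are 3 Affymetrix arrays, 1 for cells lacking both p53 and Mef (DKO), 1 for cells lacking p53 alone (p53 KO) and 1 for wild-type cells (WT). Both mutant groups therefore share the loss of p53, and the DKO cells differ from p53 KO cells by the further loss of Mef, an ETS transcription factor encoded by Elf4. The labels used here do not state age, strain, knockout alleles, or how many mice or sorts were pooled per array. With 1 array per genotype nothing was tested, no difference has an error, and each statement compares these arrays only.

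KLFs are transcription factors whose carboxy-terminal zinc fingers bind GC-rich and CACCC elements, so that members can compete for the same sites. The parts outside the fingers set what a member does there. Klf2, Klf4, Klf5, Klf6 and Klf7 mostly act as activators, Klf3 and Klf12 recruit the corepressor CtBP, and Klf9, Klf10 and Klf13 recruit the corepressor Sin3A. In blood, the family is known for holding lymphocytes in quiescence (Klf2), for monocyte differentiation (Klf4) and for red cell and B cell maturation (Klf3).

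Values are the deposited signal intensities on a linear scale, already scaled to a common mean on each array. Signals under the median of all signals (110.4) were set to that floor before log2 was taken, and a probe set was taken as measured where any array reached that level. Of the 38 KLF probe sets, 29 were measured, 21 of them on all 3 arrays. Each gene is represented by its probe set with the highest mean signal, and all 10 genes were at or over the floor on every array by that probe set. Signals of different probe sets cannot be ranked against each other, so levels are compared between arrays and not between genes.

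The arrays differed in more than the family. Of 45101 probe sets, the share at or over the floor was 53.8% for DKO, 48.9% for p53 KO and 47.3% for WT. The ratio of 3' to 5' signal of the actin control was 9.19, 6.20 and 8.29 in that order, and that of the Gapdh control was 5.90, 6.61 and 5.85. Elf4 had signals of 151 (DKO), 182 (p53 KO) and 57.4 (WT), and 129, 173 and 74.3 by its other probe set, so the array labelled DKO did not show less of it than WT did. Where these probe sets lie relative to the deletion is unknown here. The level of p53 was not analysed here, and directions rest on the arrays' labels. All 7 LSK marker genes named and measured, Kit, Cd34, Flt3, Slamf1, Procr, Meis1 and Hlf, were over the floor on every array. Markers of mature blood cells were over it too, as given with the results.

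All 5 activating members were at least 2-fold higher on p53 KO than on WT by the brightest probe set (log2 1.14 to 1.73). The DKO array was close to WT for them by that probe set, at -0.28 to 0.47. By other probe sets, DKO minus WT reached 0.77 for Klf5 and at least 1.36 for Klf6. None of the 5 repressing members was 2-fold higher on p53 KO by its brightest probe set (-0.54 to 0.62), but a dimmer Klf3 probe set was (1.10). Over the 10 genes, p53 KO exceeded WT by 2-fold or more in 5 and was under it by that much in 0, as did 6.51% and 3.19% of 12597 measured genes. DKO exceeded p53 KO by 2-fold in 0 and was that far under it in 5 (Klf3, Klf4, Klf5, Klf6 and Klf7), as were 4.10% and 5.93% of measured genes. DKO exceeded WT by 2-fold in 0 and was that far under it in 1, Klf3, as were 5.22% and 3.10% of measured genes. These comparisons share arrays and are not independent of each other. The division into activating and repressing members was applied after the values were seen, and no difference between these types was tested. It does not hold in every comparison: the repressor Klf3 was 2-fold lower on DKO than on p53 KO and the activator Klf2 was not, and Klf3 and Klf13 were also highest on p53 KO.

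**Figure D1:**
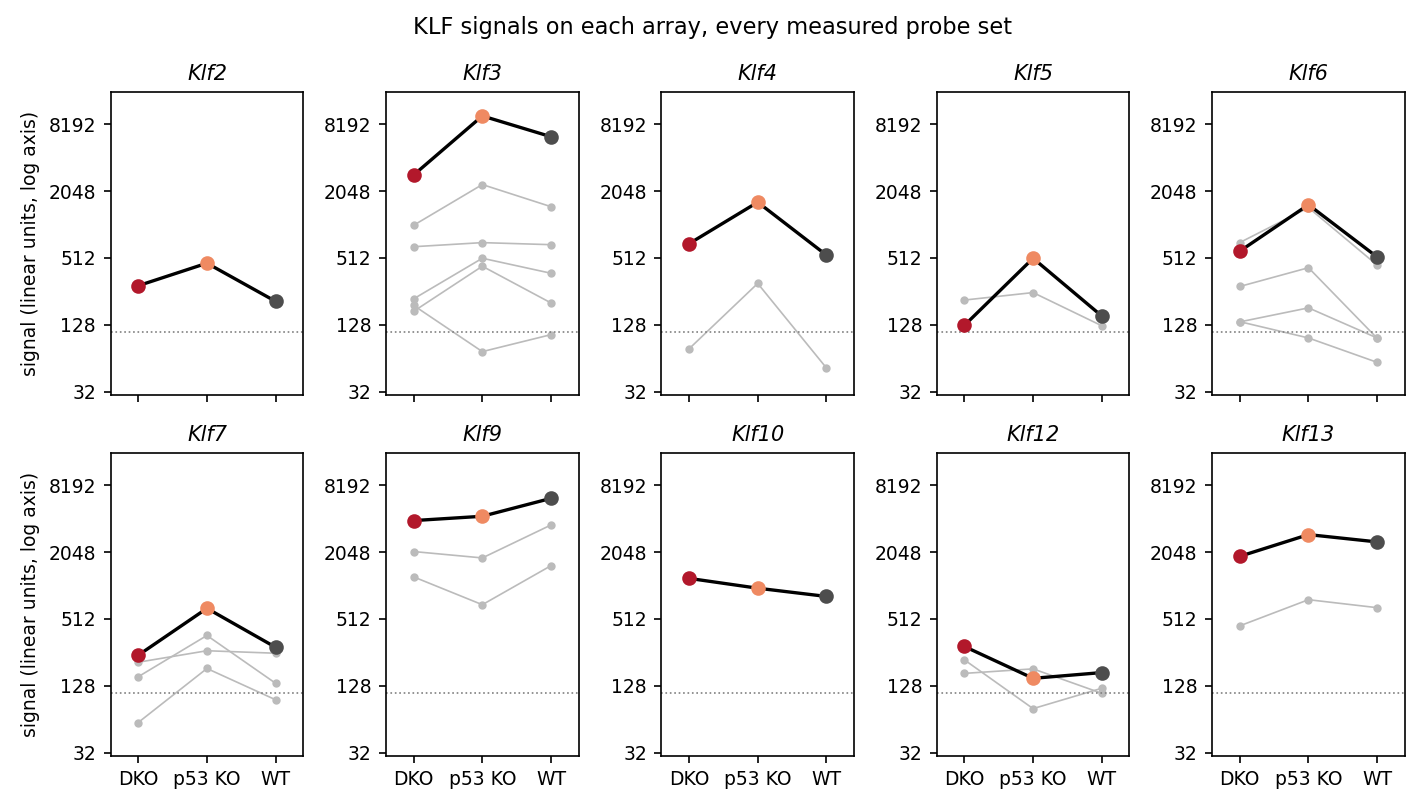
Signals of the 10 KLF genes on the DKO, p53 KO and WT arrays (1 array each), on a logarithmic axis; the black line with coloured points is the probe set with the highest mean signal, grey lines are the gene's other measured probe sets, and the dotted line is the floor of 110.4. Klf2, Klf4, Klf5, Klf6 and Klf7 peak on the p53 KO array, Klf3 is lowest on the DKO array, and Klf9 is highest on the WT array.

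Promoter sequence is shown for 4 members: Klf2, Klf4 and Klf6, which were high on the p53 KO array, and Klf3, which was low on the DKO array. Klf7, also high on the p53 KO array, was searched but is not shown. Each line gives the 250 bases before the annotated start on the gene's own strand, from RefSeq on build GRCm38.p6, read 5′ to 3′.
Klf2, chr8:72318812-72319061, plus strand, with a MEF2 site in capitals: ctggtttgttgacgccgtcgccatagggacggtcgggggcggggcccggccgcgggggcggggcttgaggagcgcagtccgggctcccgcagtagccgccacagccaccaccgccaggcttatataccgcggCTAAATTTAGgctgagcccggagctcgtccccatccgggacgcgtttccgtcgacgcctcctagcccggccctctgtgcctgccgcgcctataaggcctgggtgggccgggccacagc
Klf4, chr4:55532476-55532725, minus strand, with 4 GC boxes (GGGCGG or its reverse complement) in capitals: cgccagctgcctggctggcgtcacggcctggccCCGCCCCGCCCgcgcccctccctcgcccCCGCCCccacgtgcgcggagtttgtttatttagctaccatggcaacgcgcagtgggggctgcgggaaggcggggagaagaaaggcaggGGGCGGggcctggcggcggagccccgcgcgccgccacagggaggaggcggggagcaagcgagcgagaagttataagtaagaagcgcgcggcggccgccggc
Klf6, chr13:5861239-5861488, plus strand, with 1 GC box in capitals: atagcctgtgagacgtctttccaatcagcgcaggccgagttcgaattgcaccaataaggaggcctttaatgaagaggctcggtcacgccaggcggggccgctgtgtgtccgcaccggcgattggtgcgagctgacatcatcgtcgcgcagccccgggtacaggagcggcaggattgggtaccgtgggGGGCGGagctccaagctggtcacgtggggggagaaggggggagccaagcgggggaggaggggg
Klf3, chr5:64803271-64803520, plus strand, with the KLF consensus GGGTGNGG in capitals: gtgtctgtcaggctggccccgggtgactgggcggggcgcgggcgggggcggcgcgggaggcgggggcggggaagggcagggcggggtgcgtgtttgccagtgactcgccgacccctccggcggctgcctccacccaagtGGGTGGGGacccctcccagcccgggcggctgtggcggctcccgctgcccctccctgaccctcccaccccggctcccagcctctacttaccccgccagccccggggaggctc

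Of the 10 members, 8 had a promoter in the RefSeq table, all but Klf5 and Klf10. They were searched on both strands, and the shares that follow are out of 32851 promoter windows of the same length. The KLF family's own consensus GGGTGNGG was present in 3 of 8 (Klf3, Klf7 and Klf12), against 14.9% of all promoters. Its core CACCC, whose reverse complement overlaps that consensus, was present in 6 of 8, against 52.0%, and the GC box GGGCGG in 6 of 8 (all but Klf9 and Klf12), against 32.7%. The G and C content of the member promoters ranged from 48.0% in Klf12 to 78.4% in Klf3, where the median of all promoters was 52.4%, and its part in these shares was not tested. A MEF2 site was present in Klf2 alone, at -118 to -109 from the start, against 2.92% of all promoters. MEF2 factors under the kinase ERK5 are known activators of Klf2. The cyclic AMP response core TGACGT was present in Klf9 and Klf13 (6.47% of all promoters). A CArG box, the element through which serum response factor drives immediate early genes, was found in 0 of 8 (1.47%), and a single p53 decamer in 0 of 8 (7.13%). These matches describe letters in a window and are not evidence of binding.

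Klf2, which keeps T and B cells quiescent and directs their trafficking, had a single probe set. Its signal was 288 (DKO), 459 (p53 KO) and 208 (WT). It was highest on p53 KO, with DKO between the other arrays. On the log2 scale p53 KO minus WT was 1.14, DKO minus WT was 0.47 and DKO minus p53 KO was -0.67. As all 3 signals were near the 75th percentile of the data (448.4) or under it, a floor set there left a difference of 0.03 for p53 KO against WT.

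Klf4, which drives monocyte differentiation and is one of the factors used to reprogram cells to pluripotency, had signals of 686 (DKO), 1626 (p53 KO) and 542 (WT). Its other probe set gave 77.5, 302 and 52.1, and was over the floor on the p53 KO array alone. The p53 KO array was thus the high one by both probe sets, while DKO and WT lay together. The log2 difference was 1.58 for p53 KO minus WT and -1.24 for DKO minus p53 KO. By the dimmer probe set these were at least 1.45 and at least 1.45 lower.

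Klf6, a growth-restraining factor that responds early to serum and injury, had signals of 588 (DKO), 1544 (p53 KO) and 521 (WT) by its main probe set. A probe set of nearly the same brightness gave 703, 1452 and 440. The log2 differences for p53 KO against WT were 1.57 and 1.72, and those for DKO against p53 KO were -1.39 and -1.05. The 3 other probe sets were dimmer: 1 gave 283, 418 and 96.5, 1 gave 136, 182 and 97.2, and 1 gave 136, 97.3 and 58.6. All 5 were lowest on the WT array, and 4 of 5 were highest on p53 KO. For DKO against WT they parted in size, from 0.17 by the main probe set to at least 1.36.

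Klf5, which promotes proliferation in epithelia and has been tied to progenitor homing and neutrophil production in mouse marrow, showed the greatest difference of the 10 members. Its signal was 126 (DKO), 508 (p53 KO) and 153 (WT), which is a log2 difference of 1.73 for p53 KO minus WT and -2.01 for DKO minus p53 KO. The DKO and WT signals were near the floor. A further probe set gave 213 (DKO), 249 (p53 KO) and 125 (WT), for which the same differences were 0.99 and -0.22. The probe sets shared the direction of both differences but not their size, and only the brighter one reached 2-fold. For DKO minus WT they ran in opposite directions, at -0.28 by the brighter one and 0.77 by the dimmer. The other probe set was below the floor throughout.

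Klf7, best known for its part in neuron development, had signals of 241 (DKO), 638 (p53 KO) and 284 (WT). Its 3 further probe sets gave 154, 363 and 135, then 208, 265 and 251, then 59.6, 183 and 95.6, in the same order of arrays. All 4 were highest on p53 KO. The log2 difference for p53 KO against WT ranged from 0.07 to 1.43 among them, and was 1.17 by the brightest. For DKO against p53 KO it ranged from -1.40 to -0.34.

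Of the family's 29 measured probe sets, 21 were highest on the p53 KO array, 13 of 14 among the activating members and 8 of 15 among the others, where 28.1% of 21841 measured probe sets were. Probe sets of a gene share its transcript and its labelling reaction and are not replicates. By gene, 7 of 10 KLFs were highest on p53 KO, where 28.9% of measured genes were, 2 (Klf10 and Klf12) on DKO, where 42.2% were, and 1 (Klf9) on WT, where 28.9% were. On p53 KO 4 of 10 (Klf4, Klf5, Klf6 and Klf7) were at least 2-fold over both other arrays, where 3.56% of measured genes were. On DKO 5 of 10 were lowest, where 23.0% of measured genes were, and 1 (Klf3) was at least 2-fold under both other arrays, where 1.33% were. Klf4, Klf5 and Klf6 were higher for p53 KO against WT than 98.1% to 98.7% of measured genes.

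**Figure D2:**
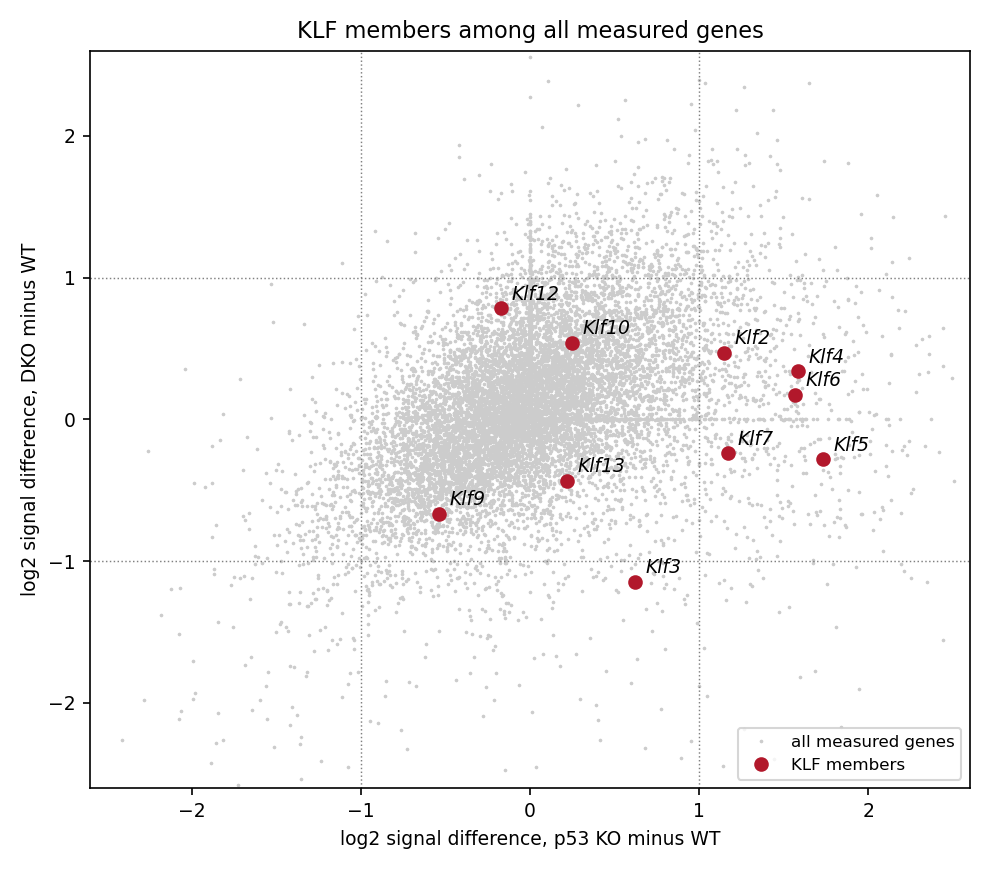
Log2 signal difference of p53 KO minus WT (horizontal) and of DKO minus WT (vertical) for the 10 KLF genes, in red, and all 12597 measured genes, in grey, with dotted lines at 2-fold; 34 genes lie outside the plotted range. Both axes share the WT array, so the slant of the grey cloud is no result. Each gene is shown by its brightest probe set. To the right of the 2-fold line lie 5 KLFs with DKO differences between -0.28 and 0.47, and Klf3 alone lies under the lower 2-fold line.

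Of the CtBP-recruiting repressors, Klf3 differed most on the DKO array. Klf3, which restrains red cell and B cell genes and is itself activated by Klf1 in erythroid cells, had signals of 2858 (DKO), 9741 (p53 KO) and 6324 (WT). Its next probe set gave 1007, 2346 and 1481. DKO was the low array and p53 KO the high one by both. On the log2 scale DKO minus WT was -1.15, DKO minus p53 KO was -1.77 and p53 KO minus WT was 0.62. It was lower for DKO against p53 KO than all but 1.89% of measured genes.

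The other Klf3 probe sets did not all follow. Of 6 measured, 5 were lowest on DKO and highest on p53 KO, but for DKO against WT their differences ranged from -1.15 to -0.06, and only the brightest reached 2-fold. A probe set with signals of 646 (DKO), 703 (p53 KO) and 674 (WT) was nearly level. Another, at 169, 431 and 201, was over 2-fold higher on p53 KO than on WT (1.10). A dim probe set ran the other way, at 191, 73.3 and 104. The mean over the 6 probe sets was -0.33 for DKO minus WT and -0.81 for DKO minus p53 KO, so Klf3 was not 2-fold lower by that measure. Which transcripts each probe set detects is unknown here.

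Klf1, the erythroid founder of the family and the known activator of Klf3, had signals of 1972 (DKO), 9033 (p53 KO) and 12847 (WT). Klf1 and Klf3 were thus both lowest on DKO, but their order on the other arrays differed. Erythroid markers moved with them: all 7 measured, Klf1 among them, were lower on DKO than on either other array. Of these, 4 were highest on WT, such as Aqp1 (1649, 9034 and 11297) and Ermap (2970.3, 16391 and 19247). The other 3 had the order of Klf3, with p53 KO highest, namely Alas2 (1091, 11459 and 1787), Epb42 (408, 6526 and 1199) and Tfrc (2999, 16067 and 8115). Summed over all 8 named on the array, the signals were 11587 (DKO), 69647 (p53 KO) and 55876 (WT). Their part in the Klf3 difference was not tested. In bulk samples fewer cells of a type and less RNA per cell cannot be told apart. The KLF consensus in the Klf3 promoter printed above lies at -111 to -104 from its start. Such a match is found in 14.9% of all promoters, and binding of Klf1 there was not tested.

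Klf12, a repressor first described at the AP-2 alpha gene, was highest on DKO by its brightest probe set. Its signal was 289 (DKO), 149 (p53 KO) and 168 (WT). Another probe set gave 219, 79.6 and 122, so DKO was again the high array. The remaining one gave 165, 182 and 109 and had DKO under p53 KO. The log2 difference for DKO against WT was 0.78 by the brightest probe set and 0.58 to 0.85 over the 3 measured, the lowest of these being a bound. For p53 KO against WT the sign varied between probe sets, from -0.17 to at least 0.72.

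Among the Sin3A-recruiting repressors, Klf9 was the only one of the 10 members that was highest on WT. Klf9, which glucocorticoids and thyroid hormone induce, had signals of 3937 (DKO), 4306 (p53 KO) and 6247 (WT). Its next probe sets gave 2071, 1814 and 3598, and 1225, 688 and 1547. WT was the high array in all 3. The log2 difference for p53 KO against WT was -0.54, -0.99 and -1.17 in that order, and for DKO against WT it was -0.67, -0.80 and -0.34. The difference between DKO and p53 KO changed sign between probe sets, from -0.13 to 0.83. The 4 other Klf9 probe sets were below the floor on every array.

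Klf10, an immediate target of TGF-beta signalling that restrains growth, had signals of 1188 (DKO), 968 (p53 KO) and 816 (WT). The log2 difference was 0.54 for DKO against WT and 0.25 for p53 KO against WT, both under 2-fold. Klf13, which is needed for normal red cell maturation, had signals of 1874 (DKO), 2944 (p53 KO) and 2529 (WT), and 443, 763 and 646 by its other measured probe set. DKO was the low array by both, with a difference against p53 KO of -0.65 and -0.78.

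**Figure D3:**
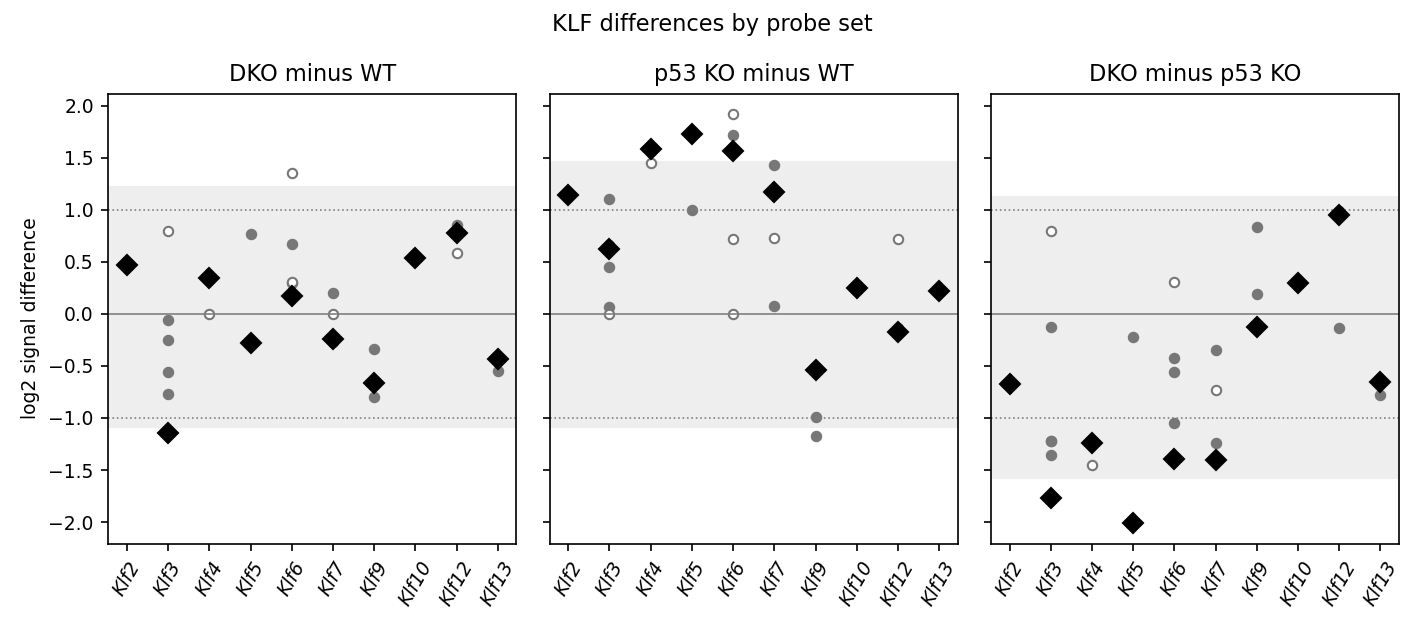
Log2 signal difference of each measured KLF probe set for DKO minus WT, p53 KO minus WT and DKO minus p53 KO; diamonds are the brightest probe set of a gene, circles the others, and open symbols are values for which an array was below the floor. The grey band holds the middle 95% of all 12597 measured genes, and dotted lines mark 2-fold; among the diamonds Klf3 lies below the band for DKO minus WT, Klf4, Klf5 and Klf6 above it for p53 KO minus WT, and Klf3 and Klf5 below it for DKO minus p53 KO. Among the circles, a Klf6 probe set (at least 1.36) lies above it for DKO minus WT, and for p53 KO minus WT Klf6 probe sets (1.72 and at least 1.92) lie above and a Klf9 probe set (-1.17) below.

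For scale, a second measured probe set was available for 5511 genes, and the robust SD of the gap between the log2 differences of the 2 brightest was 0.43 for p53 KO minus WT, 0.49 for DKO minus WT and 0.51 for DKO minus p53 KO. For p53 KO minus WT, the differences of the 5 activating members, of Klf3 and of Klf9 were larger than that, and those of Klf10, Klf12 and Klf13 were smaller. This spread holds no variation between animals or sorts.

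The wider family did not follow as a whole. Of 13 other KLF and SP genes named on the array, 10 were measured, and p53 KO exceeded WT by 2-fold in 1 and was 2-fold under it in 1, with a median of -0.12. Sp3, a close relative of Sp1, was the higher one, at 1562 (DKO), 2385 (p53 KO) and 1180 (WT). Klf16, a Sin3A-binding repressor, was the lower one, at 507, 175 and 693 (-1.99 for p53 KO against WT). Sp1 itself was level, with signals of 6858, 6940 and 6814. Klf11, the nearest relative of Klf10, was at 844, 985 and 873. Sp4 was at 431, 725 and 881, and was 2-fold lower on DKO than on WT (-1.03). Klf14, Klf17, Sp6 and Sp7 were near the floor and differed by -0.55 to 0.75 over the 3 comparisons, in part as bounds, and 3 further genes were below it throughout.

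Genes that act above Klf2 and Klf4 gave mixed values. Of 14 genes of the ERK5 and MEF2 route and the CCM complex that restrains it, 12 were higher and 2 lower for DKO against WT, and 9 were higher and 4 lower for p53 KO against WT, where 55.9% and 46.2% of measured genes were higher. At 2-fold, 2 and 1 were higher and 0 lower. Medians were 0.42 and 0.31, where all measured genes had medians of 0.07 and 0.00. Map3k3, a kinase at the top of the ERK5 cascade, had signals of 944 (DKO), 1426 (p53 KO) and 684 (WT), the same order of arrays as Klf2. Hdac5, a deacetylase that holds MEF2 in check, had 1270, 1094 and 626, and Mef2c had 4927, 3323 and 2438, highest on DKO, where Klf2 was not. Of 7 genes of the PI3K, AKT and FoxO route, 0 were 2-fold different in any comparison. Foxo3, a factor that induces Klf2 in lymphocytes, had 4618, 3626 and 2769, Foxo4 had 394, 493 and 310.4, and the kinase subunit Pik3cd had 4439, 5040 and 6710.

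Of 10 TGF-beta and SMAD genes, which act above Klf10, 0 were 2-fold different in any comparison, with medians of 0.37 for DKO against WT and 0.28 for p53 KO against WT. Tgif1, a SMAD corepressor, was at 345 (DKO), 202 (p53 KO) and 195 (WT), Tgfb1 at 611, 500.1 and 413, and Smad4 at 3308, 3105 and 2253. Klf10 followed the same order of arrays as these 3 genes. Of the 10, 6 were highest on DKO, 3 on p53 KO and 1 on WT. Of 6 glucocorticoid response genes, the class that includes Klf9, the median was 0.09 for DKO against WT and -0.08 for p53 KO against WT. Sgk1, a kinase, was at 634 (DKO), 2328 (p53 KO) and 759 (WT), Ddit4, an mTOR inhibitor, at 1409, 593 and 622, and Zbtb16 at 225, 186 and 280.3. Of these, Zbtb16 alone shared with Klf9 the highest signal on WT.

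KLF cofactors differed by less than 2-fold. Of 16 measured cofactor and ubiquitin ligase genes, 0 were 2-fold different in any comparison, and medians were 0.02 for DKO against WT and -0.13 for p53 KO against WT. Ctbp1, the partner of Klf3 and Klf12, had signals of 6855 (DKO), 9107 (p53 KO) and 9056 (WT). Sin3a, the partner of Klf9, Klf10 and Klf13, had 918, 1136 and 903. The largest differences for the p53-null arrays were those of the acetyltransferase genes Kat2b (2962, 4137 and 2219) and Kat2a (2808, 1582 and 2707), and of the deacetylase gene Hdac2 (3933, 2812 and 4249).

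Known targets gave mixed values. Of 5 measured trafficking and vascular genes that Klf2 activates in lymphocytes or endothelium, 5 were higher and 0 lower for p53 KO against WT, with a median of 0.57 and 0 at least 2-fold. S1pr1, the receptor for lymphocyte exit into the blood, had signals of 281 (DKO), 217 (p53 KO) and 114 (WT). The integrin gene Itgb7 had 665, 856 and 460 (0.90 for p53 KO against WT), and Thbd, which encodes thrombomodulin, had 272, 361 and 243. Itgb7 and Thbd were highest on the p53 KO array, as Klf2 was, but S1pr1 was highest on DKO. Of 6 measured cell cycle genes that KLFs are known to regulate, the median was 0.58 for p53 KO against WT and 0.50 for DKO against WT. Cdkn1a, a cyclin-dependent kinase inhibitor induced by Klf4 and Klf6 among other factors, had 648 (DKO), 569 (p53 KO) and 291 (WT). It was highest on DKO, where Klf4 and Klf6 were not by their brightest probe sets. Cdkn1b had 1084, 1729 and 781 and Ccne1 had 1923, 5934 and 7112. Lgals3, which encodes galectin-3 and is repressed by Klf3 in mouse cells, had 2359 (DKO), 10666 (p53 KO) and 3232 (WT). It was highest on the array on which Klf3 was also highest.

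The genes nearest in pattern, by Euclidean distance over the 3 log2 signals less their mean, were found among 7691 bright named genes. For Klf2 they were Cdkn1b, Aldh2 and Sema7a, at distances of 0.0027, 0.0097 and 0.014, with 181 genes within 0.25. For Klf3 they were Icam4, Arhgap19 and Arhgef12, at 0.037 to 0.075, with 39 genes within 0.25. Icam4 is a red cell adhesion molecule, at 408 (DKO), 1341 (p53 KO) and 891 (WT). Tpm4, an actin-binding tropomyosin nearest to Klf4, had 1430.2, 3338 and 1136, and Pram1, nearest to Klf5, had 572, 2376 and 679.7. For Klf4 they were Tpm4, Tesk2 and Rell1 (0.022 to 0.046), and for Klf6 they were Ccrl2, St6gal1 and Alox5 (0.012 to 0.035). For Klf5 they were Pram1, Hvcn1 and Ppp1r15a (0.053 to 0.065), and for Klf7 they were Dstn, Pdzk1ip1 and Cyp4f18 (0.011 to 0.045). Over only 3 arrays many genes lie this close, and nearness here says nothing of shared control.

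Immediate early and stress genes, a class to which Klf2, Klf4, Klf6 and Klf10 are often assigned, did not share 1 order of arrays: of 22 measured, 14 were highest on DKO, 7 on p53 KO and 1 on WT. At the 2-fold level, 13 were higher for p53 KO against WT and 12 for DKO against WT, with 0 lower in either and medians of 1.04 and 1.15. Fos had signals of 14202 (DKO), 5890 (p53 KO) and 1384 (WT), Jun had 930.0, 369 and 180.0, and Dusp1 had 3951, 2351 and 869. These leading members were highest on DKO, where Klf4 and Klf6 lay near WT by their brightest probe sets. By another Klf6 probe set DKO minus WT was at least 1.36. Klf10 had the same order of arrays as Fos, at 1188, 968 and 816, and Klf2 was 0.47 over WT on DKO but highest on p53 KO. Others of the list were highest on p53 KO. Btg2, at 818, 2052 and 650, had the order of Klf4. Ppp1r15a, at 723, 3066 and 871, had that of Klf5 by its brightest probe set. Both were chosen after their values were seen. For DKO against p53 KO the list's median was 0.47, with 4 at least 2-fold higher and 3 lower, while the KLF members' median was -0.96.

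Of the markers of mature blood cells, all 9 monocyte, all 8 B cell and 8 of 11 granulocyte markers measured were highest on the p53 KO array. All 9 measured monocyte and macrophage markers were higher for p53 KO against WT, 7 of them at least 2-fold, with summed signals of 23350 (DKO), 56987 (p53 KO) and 22432 (WT). The chemokine receptor gene Ccr2, had 465, 3365 and 735, Mpeg1 had 3393, 7056 and 1819, and F13a1 had 1862, 3819.7 and 1038. All 8 measured B cell markers and all 11 granulocyte markers were also higher for p53 KO against WT, 7 and 6 of them at least 2-fold, with sums of 2907, 6549 and 1792 for B cells and of 115725, 212462 and 124488 for granulocytes. Ebf1, the B lineage factor, had 222, 749 and 154, Blk had 193, 651 and 130.4, and Igll1 had 366, 744 and 136. Of the granule proteins, Mmp9 had 1776, 10173 and 2933, Mmp8 had 1112, 6711 and 1969, and Fcnb had 458, 1498 and 400.1, while Elane, at 2308, 1719 and 800.1, and Ctsg, at 14770, 10135 and 5071, were highest on DKO. Mpo was level between the p53-null arrays, at 27120.2, 27108 and 14665. Single markers differed in both directions between DKO and WT, from -0.71 (Lyz2) to 0.90 (Mpeg1) among monocyte markers and from -1.19 (Camp) to 1.54 (Ctsg) among granulocyte markers, which the sums do not show. The part of these markers in the KLF differences was not tested.

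Other lineages differed among themselves. The 7 megakaryocyte and platelet markers were all higher for p53 KO against WT, 6 of them at least 2-fold. Their summed signals were 7632 (DKO), 13045 (p53 KO) and 4298 (WT). Ppbp led, at 118, 3292 and 158, with Itgb3 at 208, 461 and 65.1 and Selp at 740.2, 591 and 269. Of 7 T cell markers named on the array, 4 were below the floor on every array, namely Cd2, Cd3e, Cd3g and Cd4. The measured ones were Cd3d at 20.4, 217 and 50.7, Cd8a at 34.8, 284 and 254, and Lat at 840.5, 570.3 and 524, and the sums over all 7 were 1016, 1213 and 919.7. Of 8 stroma and endothelium markers 6 were measured, with sums over all 8 of 2108, 4109 and 1499, to which Vcam1 gave 713, 2889.9 and 566 and Cxcl12 gave 295, 376 and 184. Pecam1 had 221, 89.3 and 109, while Cdh5 and Col1a1 were below the floor throughout. Of the 7 LSK markers, 5 were highest on DKO, Procr (589, 782 and 547) on p53 KO and Kit on WT, with sums of 26982 (DKO), 13418 (p53 KO) and 16290 (WT). Among them Kit had 4873, 2522 and 4996, Cd34 had 6633, 2442 and 2230.4, Meis1 had 4505, 2373 and 2169, and Flt3 had 4728, 1492 and 2387.

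**Figure D4:**
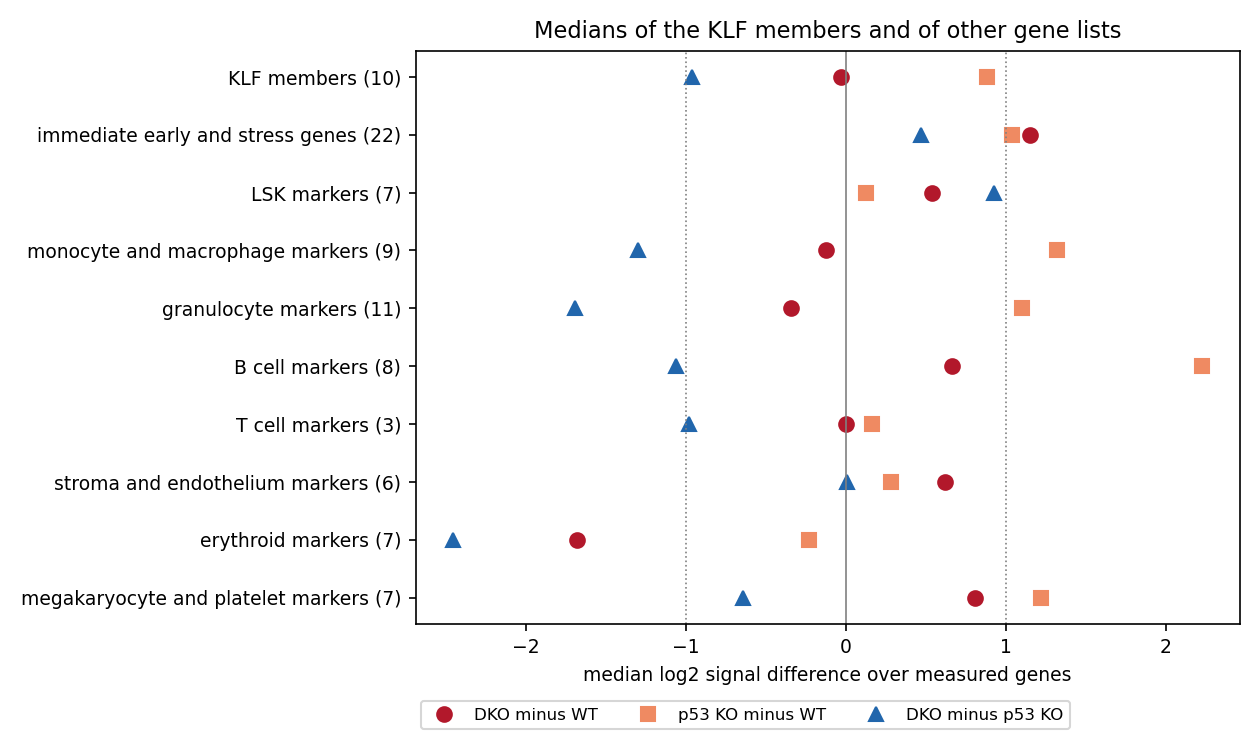
Median log2 signal difference over the measured genes of the KLF family and of 9 other gene lists (number measured in brackets) for DKO minus WT, p53 KO minus WT and DKO minus p53 KO; dotted lines mark 2-fold. The KLF medians are -0.03, 0.88 and -0.96. The monocyte, granulocyte, B cell, T cell, erythroid and megakaryocyte markers all share their order, with p53 KO minus WT highest and DKO minus p53 KO lowest. Signs and sizes differ: the erythroid median is -0.23 for p53 KO minus WT and -1.68 for DKO minus WT. The T cell medians rest on 3 genes. The median of the immediate early genes is 1.15 for DKO minus WT and 1.04 for p53 KO minus WT.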

How the data were processed

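The labels' protocols name RNeasy for extraction and a one-cycle Affymetrix biotin kit for labelling. GCOS and MAS5 were used by the authors to make the values, per the submitters' processing notes, with no version stated. The deposited values are linear signal intensities for 45101 probe sets, with a 2% trimmed mean of 500.0 on each array. There were 0 value columns that could not be matched to an array, and no detection call was used.

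Of the probe sets, 34958 carried 1 gene symbol in the platform annotation, 932 several and 9211 none. Symbols were updated through the Entrez ID in the RefSeq table for 34754. Several genes of the lists were not named in that annotation and are not analysed here. Differences are log2 signals of the array named first minus that of the array named second. Where an array lay under the floor, the difference is a bound. A gene was called at 2-fold. The precision is limited by the number of arrays, 1 per genotype, so no p-value was computed.

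The 18 gene lists (184 entries) and the members were chosen with earlier results of these data known, as were the probe set rule, the floor and the alternatives. Text names all members, all measured KLF and SP relatives, the 3 measured genes of every other list farthest from WT on either p53-null array, and the 3 nearest genes by pattern, among genes whose brightest array reached the 75th percentile. Named beyond these, after their values were seen, are Btg2, Ctbp1, Sin3a, Elane, Ctsg, Mpo, Lyz2, Camp, Alas2, Epb42, Tfrc, Flt3 and other LSK markers, markers under the floor, and Elf4. Promoter windows were cut to the 250 bases before the start. The calculation was tested on simulated data. Python 3.11.15, pandas 2.3.3, R 4.3.3 and limma 3.58.1 were used. Alternatives were thresholds of 1.5-fold and 3-fold, averaging a gene's probe sets, keeping transcript-specific probe sets, replacing the floor by a pseudocount of 32, moving it to the 25th or 75th percentile, and normalizing by quantiles or by cyclic loess (3 iterations).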

Additional observations from a re-analysis of the deposited data

How the results depend on the processing

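Counts and medians of the KLF members moved little with quantile normalization, cyclic loess, the lower floor or a pseudocount: the 5 members 2-fold higher for p53 KO against WT stayed 5 in number under each. They were 4 with the mean over probe sets (Klf7 at 0.85) and 4 with probe sets unique to a transcript (Klf5 at 0.99), 2 with the floor at the 75th percentile and 2 at a 3-fold threshold. The 5 that were 2-fold lower for DKO against p53 KO became 4 with probe sets unique to a transcript (Klf5 at -0.22). They became 3 with the higher floor, 2 with the mean over probe sets and 2 at 3-fold. At 1.5-fold they were 7, where 12.2% of measured genes were lower. The 1 that was lower for DKO against WT became 0 with the mean over probe sets, 0 at 3-fold and 2 at 1.5-fold. At 1.5-fold, DKO exceeded WT in 1 member and p53 KO in 1, where 17.1% and 17.0% of measured genes were higher. At that threshold 9.52% of measured genes were lower for DKO against WT. At 3-fold, 1.83% of measured genes were higher for p53 KO against WT. The shares lower at 3-fold were 2.49% for DKO against p53 KO and 0.84% for DKO against WT. Median differences for DKO against WT were 0.21 with the mean over probe sets and 0.41 with probe sets unique to a transcript, where the value given above is -0.03. For DKO against p53 KO the median was -0.51 with the higher floor, -0.70 with the mean over probe sets and -0.66 with unique probe sets. For p53 KO against WT it was 0.25 with the higher floor and 0.67 with the mean over probe sets. The higher floor lies over several members' signals on DKO and WT, so that it shortens their differences by construction; the cause of the other shifts was not tested. Quantile normalization set the median of all genes for DKO against WT to 0.00, from 0.07. Of 207 single-gene values under alternatives, 191 lay within the spread between probe sets, 16 moved beyond it, and 0 of those called 2-fold turned in sign. No paired analysis was possible because each genotype had 1 array.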
